A study of Mus musculus with 35 samples.

Results

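Gene expression in brain and cerebellum was compared with that in heart and colon of adult C57BL/6J mice of both sexes. C57BL/6J is an inbred laboratory strain, and the labels give no treatment or engineered allele. The comparison used 23 of the 29 RNA-seq libraries, among 35 samples in all, and chose them by tissue alone: 6 from brain, 6 from cerebellum, 6 from colon and 5 from heart. Each tissue had 3 female and 3 male libraries, apart from heart, with 3 female and 2 male. The labels do not say whether libraries of a group came from separate animals, so the P-values measure the spread between these libraries, which may be partly technical. Of 55356 counted genes, 25741 passed a filter on low counts and were tested. The mean of brain and cerebellum, each with equal weight, was set against the mean of heart and colon. A gene was then called higher or lower in the neural tissues when its Benjamini-Hochberg adjusted P was under 0.05 and when brain and cerebellum both lay on the same side of heart and of colon.

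Brain and cerebellum are built of neurons and of glia, among them astrocytes, which take up transmitters and ions, and oligodendrocytes, which wrap axons in myelin. Neurons signal at synapses, where SNARE proteins fuse transmitter vesicles with the membrane and receptors on the opposite cell sit in a protein scaffold. The repressor REST is known for holding down many neuronal genes outside the nervous system. Heart and colon have little in common in function, but both hold contractile muscle, a collagen-rich connective tissue, wide-ranging vessels and resident immune cells, and neither is enclosed by a blood-brain barrier. These are bulk tissues, so fewer cells of a type and less RNA per cell cannot be told apart.

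The tissue labels were checked with 4 markers each. The summed level of *Snap25*, *Syt1*, *Gria2* and *Slc1a2* was 1040 to 1543 FPKM in brain, 496 to 804.5 in cerebellum, 0.143 to 1.07 in heart and 4.49 to 8.8 in colon, where FPKM is the count per kilobase of exon, scaled for library size by the trimmed mean of M-values (TMM). Cerebellar markers (*Pcp2*, *Cbln1*, *Cbln3* and *Gabra6*) summed to 934 to 1852 FPKM in cerebellum and 3.26 to 17.2 in brain. Heart markers (*Myh6*, *Tnnt2*, *Actc1* and *Nppa*) were at 5.33 FPKM or less in the neural libraries, and colon markers (*Car1*, *Muc2*, *Krt20* and *Cdx2*) at 2.26 or less. Total counts ran from 11742417 to 36194255 per library. Female heart replicate 3 stood apart from the other heart libraries. Its heart markers summed to 9186 FPKM against 20900 to 26000 in the others, its TMM factor was 1.08 against 0.58 to 0.695, 7.41% of its counts came from mitochondrially encoded genes against 9.73 to 13.6%, and its median correlation within the tissue was 0.944 against 0.976 to 0.978. In that library, 494 genes of at least 1 FPKM were more than 4 times as high as in every other heart library. Of these, 173 were called lower in the neural tissues (119 of them also without it) and 79 higher, where 25.2% and 31% of all tested genes were. Leaving it out gave 8044 genes higher and 5855 lower.

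Most tested genes differed between the neural tissues and the other pair. An adjusted P under 0.05 was reached by 18765 genes (72.9% of those tested), of which 7971 (31%) were higher and 6493 (25.2%) were lower in both neural tissues than in both others. The remaining 4301 differed on average while the tissues of the sides were interleaved. Among the genes on the same side, each of the 4 tissue differences passed the test on its own for 5660 higher and 3573 lower genes. No library of the neural side overlapped a library of the other side for 4150 and 2245 genes. The largest differences were mostly in the direction of the neural tissues: the smallest of the 4 log2 differences was over 5 for 1013 higher and 105 lower genes, and over 1 for 4766 and 2702. The median log2 difference of all tested genes was -0.04. When counts were scaled by library size alone it became 0.34, and higher genes made up 70.3% of the genes on the same side in place of 55.1%, so small differences depend on the scaling.

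The contrast did not differ by sex at the threshold for any gene in edgeR (0 of 25741, 0%), while 1631 genes had an unadjusted P under 0.05 and the Wald test of DESeq2 called 16. Sexes were therefore described together, with each sex weighted equally.

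Among protein-coding genes whose libraries did not overlap and whose higher side averaged at least 10 FPKM, 1653 were higher and 1145 lower. The 10 with the largest smallest-of-4 difference in the neural direction were *Neurod2*, *Mlc1*, *Scrt1*, *Caln1*, *Gjb6*, *Zic2*, *Slc32a1*, *Cacng2*, *Mobp* and *Rph3a*. They include both neuronal and glial genes. *Neurod2* (chr11:98325415-98329648, minus strand, GRCm38), a basic helix-loop-helix factor of neuronal differentiation, was at 8.59 to 12.7 (median 9.85) FPKM in brain and 9.21 to 15 (median 11.3) in cerebellum, and had no count in any of the 11 heart and colon libraries. Its mean was at least 2072-fold higher than the level that 3 counts over those libraries would give. *Mlc1* (chr15:88955884-88982701), a membrane protein of astrocyte endfeet, was at 19.1 to 24.8 (median 23.3) FPKM in brain, 28 to 42.8 (median 35.9) in cerebellum, 0, 0, 0.0406, 0 and 0 in the heart libraries and 0 to 0.0252 (median 0) in colon. Here and below the 5 heart values are female replicates 1 to 3 followed by male replicates 1 and 2. Every neural library stood above every heart and colon library for both genes, and brain lay below cerebellum for *Mlc1*.

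*Slc32a1* (chr2:158610737-158615725), the vesicular transporter of GABA and glycine, was at 12 to 17.2 (median 14.7) FPKM in brain, 15.9 to 24.8 (median 21.6) in cerebellum, 0.101, 0, 0, 0 and 0 in the heart libraries and 0 to 0.0177 (median 0) in colon. *Cacng2* (chr15:77991748-78120028), an auxiliary subunit of AMPA receptors known as stargazin, was 1342-fold (95% counting interval 729.8 to 2799) higher in the neural tissues. For genes with at most 50 counts in all libraries of the lower side, such ratios of mean FPKM are given with the interval that counting error allows. A fitted log2 difference of such a gene depends on the prior count, and is printed beside the ratio only where fits with and without a library are compared. *Rph3a* (chr5:120940501-121010324), which binds Rab3 on transmitter vesicles, was at 72.9 to 96.9 (median 88.8) FPKM in brain, 52.8 to 68.8 (median 58.1) in cerebellum, 0.0841, 0.102, 0.0152, 0 and 0 in the heart libraries and 0 to 0.128 (median 0.0379) in colon. *Mobp* (chr9:120149741-120182200), a myelin protein, was at 95.3 to 202 (median 136) FPKM in brain, 70.9 to 255 (median 169) in cerebellum, 0.197, 0.115, 0.0714, 0.0118 and 0.0113 in the heart libraries and 0.0389 to 0.343 (median 0.0737) in colon. The spread within each neural tissue was wide for *Mobp*, whose cerebellar libraries differed among themselves by more than the medians of brain and cerebellum did, but the lowest neural library was still far above the highest of the others, with a log2 difference of 11.22 ± 0.42 (SE, adjusted P = 7.84e-16).

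**Figure D1:**
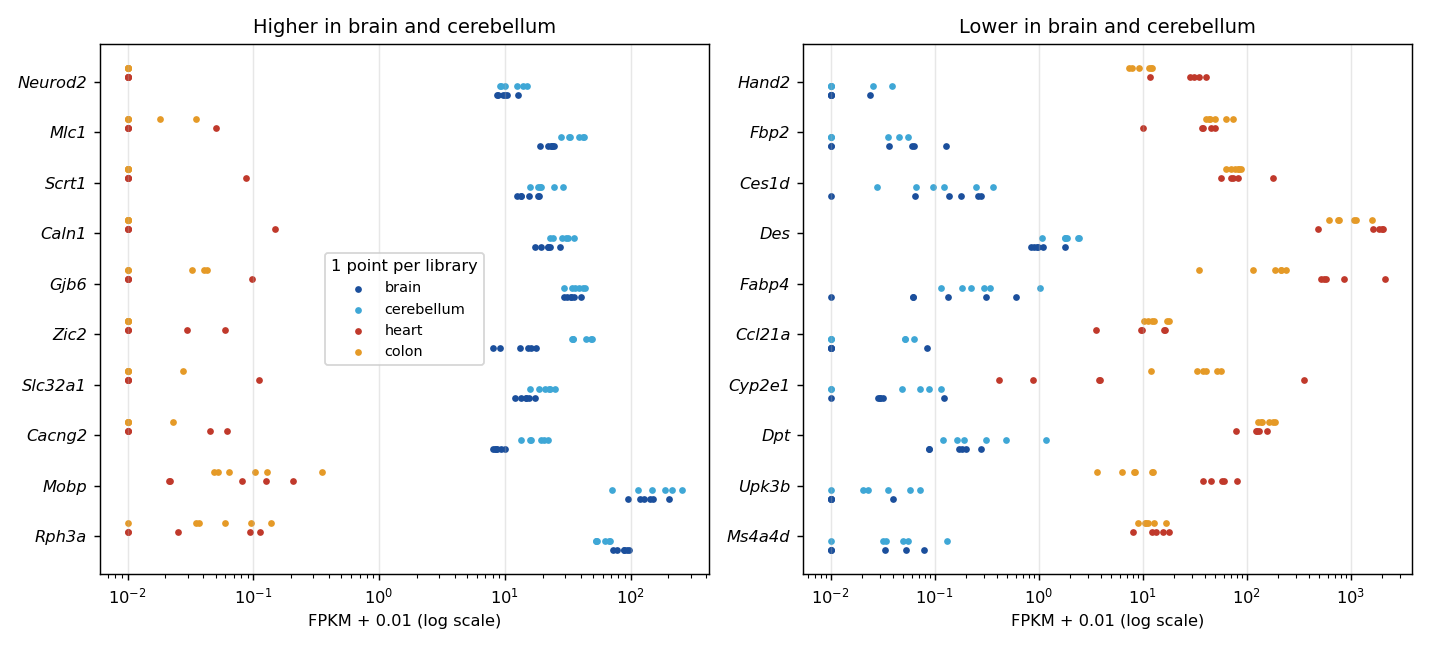
FPKM (log10 axis, with a small constant added so that 0 can be drawn) of the 10 leading protein-coding genes in each direction, 1 point per library, coloured by tissue. The 12 neural libraries and the 11 heart and colon libraries do not overlap for any of the 20 genes, and female heart replicate 3 is the single high heart point of Cyp2e1.

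Genes of transmitter release were higher in the neural tissues almost without exception. Of 40 tested genes, 38 were higher and 0 lower, against 31% and 25.2% of all tested genes, with a median log2 difference of 5.98 against -0.04 for all genes. After *Rph3a*, the members furthest apart included *Cplx1*, *Snap25* and *Syp*. Complexin 1, encoded by *Cplx1*, clamps the SNARE complex and was at 164 to 247 (median 196) FPKM in brain, 146 to 246 (median 188) in cerebellum, 0.266, 0.35, 0.0181, 0.0357 and 0 in the heart libraries and 0.28 to 0.696 (median 0.427) in colon. *Snap25*, the membrane SNARE, was at 629 to 965 (median 779) FPKM in brain, 337 to 589.8 (median 451) in cerebellum, 0.558, 0.425, 0.286, 0.0353 and 0 in the heart libraries and 2.58 to 5.95 (median 3) in colon. Brain exceeded cerebellum for *Snap25* with no overlap between them, and all colon libraries exceeded all heart libraries. Log2 differences were 10.05 ± 0.23 (SE, adjusted P = 3.01e-20) for *Snap25* and 7.27 ± 0.16 for *Syp*, a membrane protein of the vesicle. Without male heart replicate 1 the value of *Snap25* was 10.81.

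In the list of postsynaptic scaffold and synaptic adhesion genes, 34 of 38 were higher and 1 was lower (median log2 difference 4.81). The neurexin *Nrxn3*, an adhesion protein of the presynaptic side, and the scaffold proteins *Dlgap1*, *Shank1* and *Dlgap3* were among those furthest apart. *Dlgap3* averaged 39.3 ± 11.6 FPKM (SD, n = 6) in brain, 8.71 ± 1.66 in cerebellum (n = 6), 0.0339 ± 0.042 in heart (n = 5) and 0.11 ± 0.0887 in colon (n = 6), so the neural tissues differed from each other as well. The exception was *Camk2d*, a calmodulin-dependent kinase subunit known from heart muscle, which was at 17.4 to 20.3 (median 18.7) FPKM in brain, 15.6 to 18.3 (median 16.8) in cerebellum, 34.6, 30.2, 18.4, 37.5 and 36.8 in the heart libraries and 19.5 to 30 (median 24.3) in colon. Its libraries overlapped and the log2 difference was -0.66 ± 0.09 (SE, adjusted P = 1.19e-06).

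Axonal cytoskeleton and transport genes were higher in 35 of 38 cases and lower in 0 (median log2 difference 5.21). The 5 furthest apart were the neuronal intermediate filament *Ina*, the microtubule protein *Map7d2*, the kinesins *Kif5a* and *Kif5c* and the stathmin *Stmn4*. *Kif5a*, a motor of axonal transport, was at 590 to 806 (median 703) FPKM in brain, 206 to 254 (median 231) in cerebellum, 0.29, 0.301, 0.215, 0.0499 and 0.18 in the heart libraries and 0.958 to 2.33 (median 1.21) in colon. Every brain library was above every cerebellar one, and no heart or colon library reached 3 FPKM. The log2 difference was 9.71 ± 0.19 (SE, adjusted P = 4.25e-21) for *Kif5a* and 8.93 ± 0.23 for *Ina*.

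Voltage-gated sodium and calcium channels were less uniform, with 22 of 32 subunits higher and 1 lower (median log2 difference 3.43). *Scn1a* and *Scn2a*, which encode pores of neuronal sodium channels, differed by 9.39 ± 0.24 and 6.40 ± 0.19 on the log2 scale, and the auxiliary subunits *Scn2b* and *Cacnb4* by 7.57 ± 0.21 and 5.75 ± 0.18. Without male heart replicate 1 the values were 10.37 for *Scn1a* and 8.87 for *Scn2b*. *Scn8a*, another such pore, was 414-fold (95% counting interval 298 to 594) higher. *Scn1a* was at 11.2 to 15.4 (median 12.8) FPKM in brain, 10.2 to 16.5 (median 11.8) in cerebellum, 0.0127, 0, 0.0277, 0.0137 and 0 in the heart libraries and 0.00772 to 0.0708 (median 0.0326) in colon. *Scn4a*, the skeletal muscle pore, was lower by the call. It was at 0 to 0.0198 (median 0.00807) FPKM in brain, 0 to 0.031 (median 0.0168) in cerebellum, 3.06, 3.2, 0.958, 4.13 and 4.77 in the heart libraries and 0 to 0.278 (median 0.00447) in colon, so that colon overlapped both neural tissues. The ratio of means was 139.7-fold (95% counting interval 97.3 to 209). The fitted log2 difference was -4.47 ± 1.71 (SE, adjusted P = 0.0239), and the call was lost when female colon replicate 2 was left out (log2 difference -3.85, adjusted P = 1).

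Glial genes were mostly higher as well. Of the astrocyte list, 22 of 24 genes were higher and 0 lower (median log2 difference 6.23), and of the oligodendrocyte and myelin list 20 of 24 and 0 (6.17). *Gjb6* (connexin 30), the glutamate transporter *Slc1a2*, the adhesion protein *Hepacam* and the GABA transporter *Slc6a11* followed *Mlc1* among astrocyte genes. *Slc1a2* averaged 289 ± 42.5 FPKM in brain and 125 ± 14 in cerebellum against 0.201 ± 0.116 in heart and 0.38 ± 0.15 in colon. Of the oligodendrocyte genes, the lineage factor *Olig2* was at 7.34 to 13.2 (median 9.06) FPKM in brain, 4.56 to 9.37 (median 8.39) in cerebellum, 0 in the heart libraries and 0 to 0.0567 (median 0) in colon. Only 1 of the 11 heart and colon libraries held a read of it (2 counts in all), and the ratio of means was 1965-fold (95% counting interval 544 to 16230). The lineage factor *Olig1* and the oligodendrocyte proteins *Opalin* and *Ermn* were 478-fold (95% counting interval 306 to 794), 748-fold (95% counting interval 321 to 2304) and 691-fold (95% counting interval 465 to 1079) higher. In female heart replicate 3 the oligodendrocyte list summed to 117 FPKM against 43.8 to 48.1 in the other heart libraries, and the 5 leading genes of the list were higher with and without that library. It was the only heart library with reads of *Olig1* and *Opalin*, whose fitted log2 differences went from 10.29 to 11.70 and from 9.81 to 10.54 without it.

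**Figure D2:**
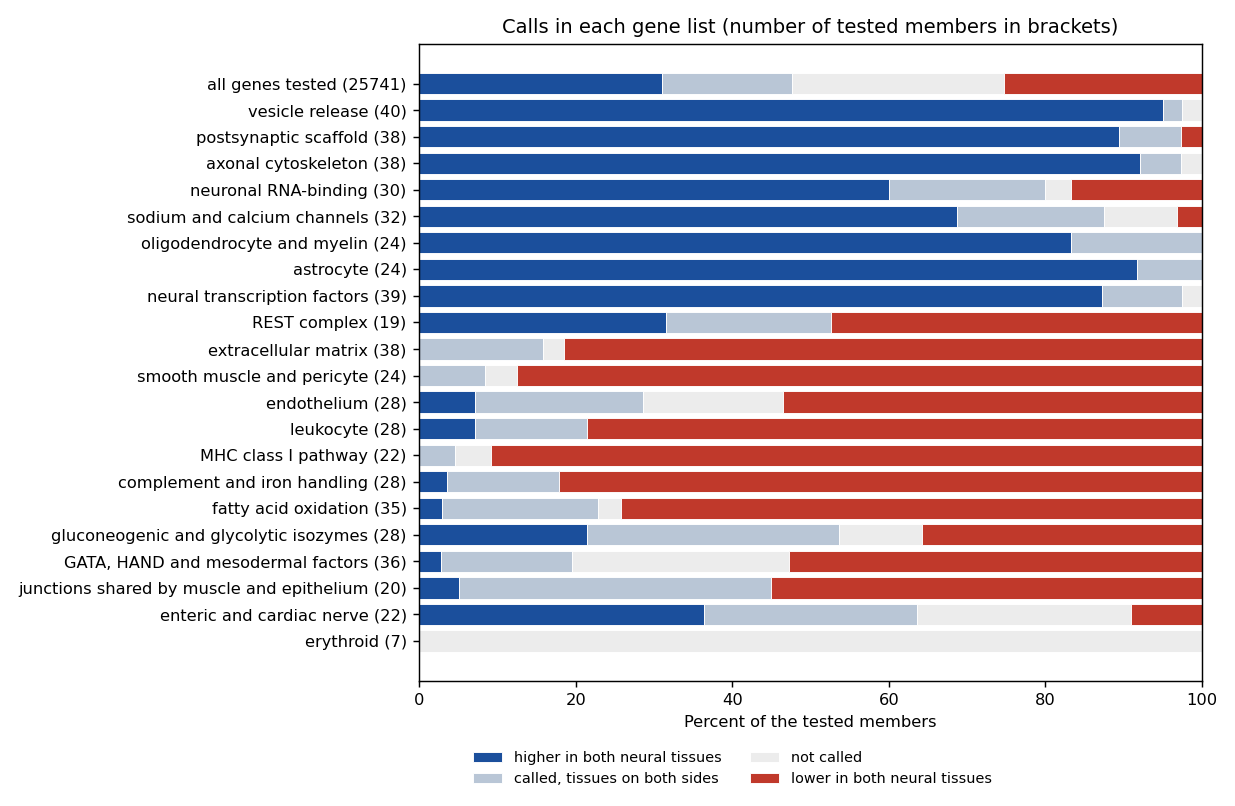
Percent of the tested genes in each gene list that were higher in the neural tissues, lower, called with the tissues interleaved, or not called. The horizontal axis is the percent of tested members, with 1 bar per list and 1 for all genes tested. Vesicle release has 38 of 40 genes higher, and extracellular matrix has 31 of 38 lower.

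Of the transcription factors of the nervous system, 34 of 39 were higher and 0 lower (median log2 difference 7.76, or 6.99 with the 13 genes that had a tissue with no count set to their lower bound). *Pou3f2*, a POU-domain factor, had no count in the 11 heart and colon libraries and was at least 2095-fold higher, and *Pou3f4* of the same family was at least 519-fold higher. The zinc-finger repressor *Scrt1* was at 12.4 to 18.5 (median 14.5) FPKM in brain, 15.8 to 28.8 (median 19.3) in cerebellum, 0.0778, 0, 0, 0 and 0 in the heart libraries and 0 in colon. *Zic2*, a zinc-finger factor known from cerebellar granule cells, was at 8.04 to 17.5 (median 14.2) FPKM in brain, 33.9 to 49.2 (median 39.8) in cerebellum, 0.0493, 0.0199, 0, 0 and 0 in the heart libraries and 0 in colon. Cerebellum lay above brain without overlap for *Zic2*, and only female heart replicates 1 and 2 held any reads, 3 in all.

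The REST complex, a repressor with its corepressors and related chromatin factors, had members in both directions. Of 19 genes, 6 were higher, close to the 31% of all tested genes, and 9 lower, against 25.2% (median log2 difference -0.24). *Rest* itself was at 2.13 to 3.3 (median 2.54) FPKM in brain, 2.53 to 4.5 (median 3.96) in cerebellum, 7.17, 9.83, 7.96, 9.22 and 8.74 in the heart libraries and 7.17 to 8.67 (median 7.64) in colon. All 12 neural libraries were below all 11 others, with a log2 difference of -1.40 ± 0.11 (SE, adjusted P = 3.49e-11). The corepressor *Rcor1* and the phosphatases *Ctdsp1* and *Ctdsp2* were lower as well (log2 differences -1.40 ± 0.08, -1.35 ± 0.09 and -1.11 ± 0.09). On the other side stood *Actl6b*, a neuronal subunit of the BAF chromatin remodeller, which was at 23.5 to 33.9 (median 27.7) FPKM in brain, 11.5 to 14 (median 12.5) in cerebellum, 0 in the heart libraries and 0.206 to 0.79 (median 0.266) in colon and 119-fold (95% counting interval 89.9 to 162) higher. Its counterpart *Actl6a* was lower (-1.08 ± 0.09). *Phf21b*, *Phf21a* and *Sin3b* were higher by 2.68 ± 0.19, 2.05 ± 0.11 and 0.27 ± 0.09 on the log2 scale. Scaling by library size alone gave 4 members of this list as lower in place of 9.

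RNA-binding proteins of neuronal splicing also had members in both directions. Of 30 genes, 18 were higher and 5 lower, against 31% and 25.2% of all tested genes (median log2 difference 1.97). *Rbfox3*, which encodes the neuronal antigen NeuN, was at 31.4 to 44.4 (median 36.8) FPKM in brain, 15.8 to 22.6 (median 20.4) in cerebellum, 0, 0, 0, 0.0524 and 0 in the heart libraries and 0.037 to 0.128 (median 0.0707) in colon, and the ratio of means was 605-fold (95% counting interval 459 to 815). *Elavl3*, a neuronal Hu protein, was at 31.5 to 41.4 (median 37) FPKM in brain, 31.4 to 54.3 (median 46.7) in cerebellum, 0, 0.0262, 0, 0 and 0 in the heart libraries and 0.0574 to 0.628 (median 0.12) in colon. The splicing proteins *Srrm3*, *Khdrbs2* and *Elavl2* completed the 5 furthest apart. Members lower in the neural tissues were *Mbnl1* (-1.22 ± 0.10), *Esrp2* (-3.19 ± 0.17), an epithelial splicing regulator, *Ptbp3* (-2.45 ± 0.13), *Ptbp1* (-1.20 ± 0.09) and *Mbnl2* (-0.20 ± 0.08). The direction of *Mbnl2* turned when counts were scaled by library size alone.

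For 28 pairs of related genes, in which one member is known from neurons or brain and the other from many tissues, the level per length of the first was taken as a share of the pair's sum in each library. The first member was higher in the neural tissues in all 28 pairs, against 31% of all tested genes. Because first members were picked as known from neurons or brain, this count was largely set in advance and is only a description. The second was lower in 14, higher in 4 (among them *Eno1*, *Elavl1* and *Rtn4*), interleaved in 7 and not called in 3 (*Kif5b*, *Dync1i2* and *Mapre1*). Of all tested genes, 25.2% were lower. The share of the first was higher in the neural tissues with no overlap between the sides in 25 pairs. *Snap25* made up 99.4% ± 0.11 (SD, n = 6) of *Snap25* and *Snap23* in brain and 98.7% ± 0.24 (n = 6) in cerebellum, against 0.964% ± 0.85 (n = 5) in heart and 15.4% ± 3.86 (n = 6) in colon. *Snap23*, the SNARE of most other cells, was itself lower in the neural tissues, with a log2 difference of -2.09 ± 0.09 (SE, adjusted P = 5.11e-16), and was at 4.18 to 5.43 (median 4.67) FPKM in brain, 5.18 to 6.72 (median 5.91) in cerebellum, 29.8, 25.8, 23, 26.4 and 25.8 in the heart libraries and 14.1 to 23.7 (median 19.5) in colon.

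*Tubb3*, the neuronal beta-tubulin, supplied 99% of the pair with *Tubb6* in brain and 97% in cerebellum but 4.64% in heart and 14.1% in colon, and *Tubb6* was lower (-3.12 ± 0.11). For the synaptogyrins *Syngr3* and *Syngr2*, the vesicle SNARE proteins *Vamp2* and *Vamp8*, and the dynamins *Dnm1* and *Dnm2*, the first member was also higher and the second lower. With the splicing repressors *Ptbp2* and *Ptbp1*, the first made up 78% of the sum in brain and 67.4% in cerebellum against 36.6% in heart and 25.1% in colon. *Kif5a* supplied 93.7% and 83.1% of its pair in brain and cerebellum and 0.703% and 2.84% in heart and colon, while *Kif5b* did not pass the threshold (log2 difference 0.30 ± 0.14, adjusted P = 0.058), although it did under several other settings, always as higher. *Eno2*, the neuronal enolase, reached only 41% of the pair in brain and 29.1% in cerebellum, and *Eno1* was higher there too (log2 difference 1.25 ± 0.12). Of the creatine kinases, *Ckb* made up 99.9% or more of the pair in both neural tissues, 75.5% ± 4.91 in colon and 1.04% ± 0.67 in heart, where *Ckm* of striated muscle prevailed. Shares overlapped for the microtubule end-binding proteins *Mapre3* and *Mapre1* and for *Ndrg4* and *Ndrg1*, with *Ndrg4* at 68% of its pair in heart.

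**Figure D3:**
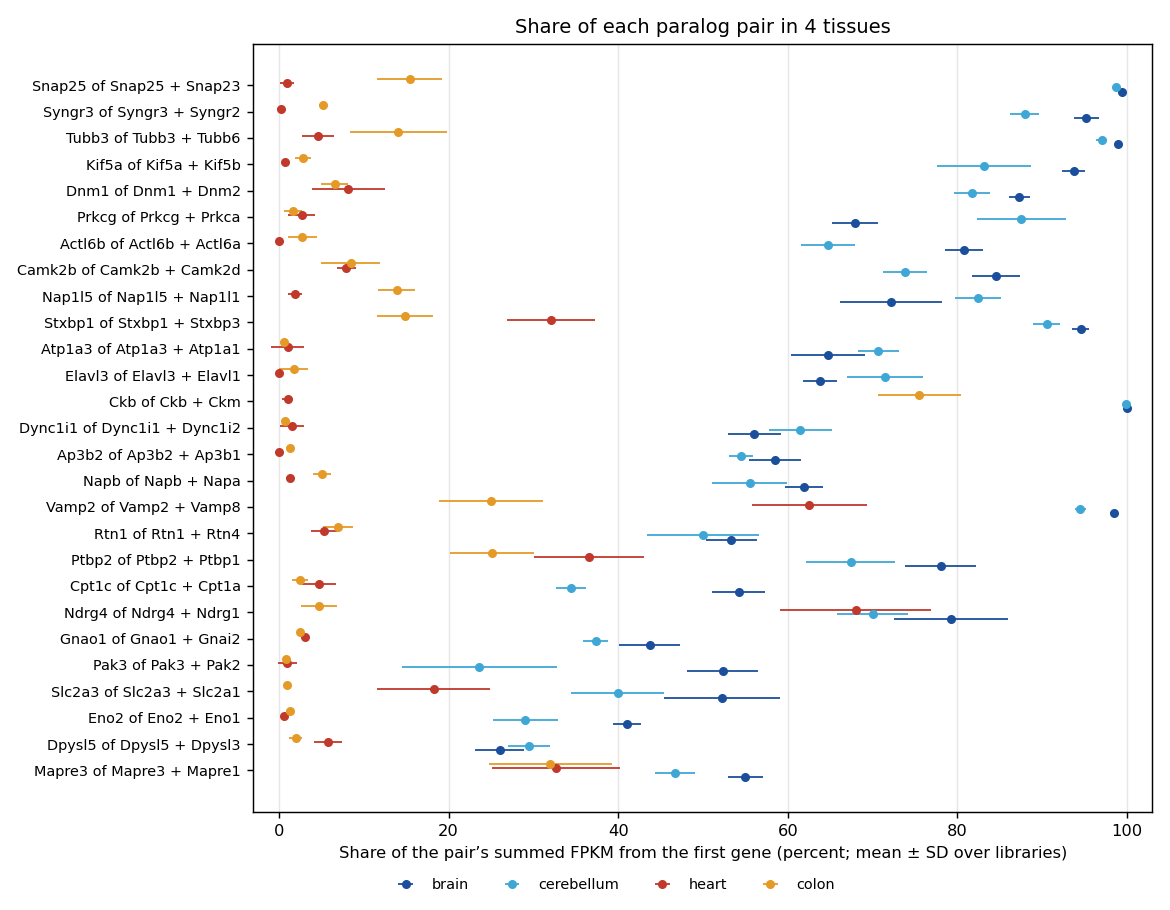
Share of the summed FPKM of each gene pair that comes from the first-named gene (horizontal axis, percent; mean ± SD over 6 brain, 6 cerebellum, 5 heart and 6 colon libraries). The share is higher in the neural tissues with no overlap between the sides in 25 pairs, and overlaps for Mapre3 and Mapre1 and for Ndrg4 and Ndrg1.

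Genes lower in the neural tissues were led by *Hand2*, *Fbp2*, *Ces1d*, *Des*, *Fabp4*, *Ccl21a*, *Cyp2e1*, *Dpt*, *Upk3b* and *Ms4a4d*. *Hand2* (chr8:57320983-57324633, plus strand), a basic helix-loop-helix factor of heart and enteric nerve development, was at 0 to 0.0139 (median 0) FPKM in brain, 0 to 0.0285 (median 0) in cerebellum, 40.6, 34.5, 11.8, 31.1 and 28.4 in the heart libraries and 7.39 to 12.2 (median 10.4) in colon. Only 4 counts of it were found in the 12 neural libraries, and the ratio of means was 4058-fold (95% counting interval 1585 to 14900). *Des* (chr1:75360332-75367721), the intermediate filament of muscle, was at 0.835 to 1.77 (median 0.958) FPKM in brain, 1.06 to 2.42 (median 1.82) in cerebellum, 1991, 2027, 479, 1628 and 1868 in the heart libraries and 624 to 1583 (median 929.6) in colon, a log2 difference of -9.79 ± 0.29 (SE, adjusted P = 1.89e-18). *Fbp2* (chr13:62836884-62858394), the muscle form of fructose bisphosphatase, was at 0 to 0.117 (median 0.0382) FPKM in brain, 0 to 0.0455 (median 0.0127) in cerebellum, 49.2, 37.1, 10.1, 37.8 and 45.7 in the heart libraries and 40.3 to 73.8 (median 47.1) in colon. Female heart replicate 3 was the lowest heart library for these 3 genes, but remained above every neural library.

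Several of these genes are known from connective and fat tissue. *Fabp4* (chr3:10204347-10208576), a fatty acid carrier of adipocytes and endothelium, was at 0 to 0.6 (median 0.0878) FPKM in brain, 0.105 to 1.01 (median 0.251) in cerebellum, 854, 515, 2121, 549 and 575 in the heart libraries and 35 to 236 (median 200.3) in colon. *Dpt* (chr1:164796703-164824266), a matrix protein, was at 0.0784 to 0.271 (median 0.168) FPKM in brain, 0.11 to 1.17 (median 0.242) in cerebellum, 127, 123, 157, 130.2 and 79.6 in the heart libraries and 129 to 189 (median 152) in colon, and *Upk3b* (chr5:136038511-136046488), a membrane protein known from mesothelium, at 0 to 0.0296 (median 0) FPKM in brain, 0 to 0.0622 (median 0.0193) in cerebellum, 60.7, 57.6, 80.2, 38.3 and 45.5 in the heart libraries and 3.65 to 12.6 (median 8.3) in colon. *Cyp2e1* (chr7:140763819-140774975), a cytochrome P450 of fat and liver, was at 0 to 0.113 (median 0.0199) FPKM in brain, 0 to 0.104 (median 0.0504) in cerebellum, 0.406, 3.78, 356, 3.88 and 0.88 in the heart libraries and 11.9 to 56.3 (median 39) in colon. Its high heart value was in female heart replicate 3 alone. The ratio of means was 1488-fold (95% counting interval 992 to 2347) with that library, and without it the fitted log2 difference went from -9.43 to -7.95 (adjusted P = 5.77e-10) on the same side. *Fabp4*, *Dpt*, *Upk3b* and the carboxylesterase *Ces1d* also had their highest heart value there and remained lower in the neural tissues without it. *Ccl21a* belongs to a group of near-identical chemokine copies among which reads can be split, so its count is uncertain.

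Collagens and other matrix genes were lower in 31 of 38 cases and higher in 0 (median log2 difference -2.81). *Col14a1*, *Col3a1*, *Col4a1*, the fibrillin *Fbn1* and the tenascin *Tnxb* were furthest apart. *Col3a1* averaged 3.87 ± 1.8 FPKM in brain, 7.75 ± 2.2 in cerebellum, 151 ± 66.5 in heart and 277 ± 28.2 in colon. *Col4a1*, a chain of the basement membrane that also surrounds brain vessels, was at 1.84 to 3.56 (median 2.31) FPKM in brain, 1.94 to 2.93 (median 2.73) in cerebellum, 25.6, 42, 44.6, 44 and 40.2 in the heart libraries and 27.5 to 48 (median 36.9) in colon. Heart and colon overlapped fully for *Col4a1*, and the neural libraries were below both, with a log2 difference of -3.90 ± 0.12 (SE, adjusted P = 4.41e-18).

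Of the smooth muscle and pericyte list, 21 of 24 genes were lower and 0 higher (median log2 difference -3.75). *Des* was followed by *Myocd* (-7.39 ± 0.19), the coactivator of smooth and heart muscle genes, *Smtn* (-4.95 ± 0.17), *Rgs5* (-4.11 ± 0.13), a pericyte gene, and *Tpm1* (-5.42 ± 0.20). The summed level of the list was 109 to 145 FPKM in brain and 96.8 to 139 in cerebellum, 1889 to 6221 in heart and 8089 to 18360 in colon.

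The endothelial list was less uniform, with 15 of 28 lower, 2 higher, 6 interleaved and 5 not called (median log2 difference -1.94). The lymphatic genes *Flt4* and *Lyve1* were furthest apart, followed by *Tek*, *Pecam1* and *Kdr*. *Flt4*, a receptor of lymphatic growth factors, was at 0.084 to 0.299 (median 0.193) FPKM in brain, 0.172 to 0.326 (median 0.239) in cerebellum, 4.54, 6.12, 2.36, 6.42 and 3.89 in the heart libraries and 3.49 to 4 (median 3.67) in colon. The 2 genes in the other direction are both known from the blood-brain barrier. *Mfsd2a*, its lipid transporter, was at 3.86 to 6.66 (median 4.96) FPKM in brain, 1.47 to 5.16 (median 4.37) in cerebellum, 0, 0, 0.0857, 0 and 0 in the heart libraries and 0.06 to 0.956 (median 0.231) in colon with a log2 difference of 6.22 ± 0.46 (SE, adjusted P = 7.74e-11). Female heart replicate 3 was the only heart library with reads of it, and without that library the difference was 7.26. *Slco1a4*, an organic anion transporter, was at 2.81 to 4.68 (median 3.68) FPKM in brain, 3.91 to 7 (median 4.32) in cerebellum, 0.891, 0.614, 0.556, 1.02 and 0.509 in the heart libraries and 0 to 0.0797 (median 0.0276) in colon, with a log2 difference of 5.10 ± 0.21 (5.73 without female colon replicate 2).

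Genes of immune cells and antigen presentation were mostly lower. Of the leukocyte list, 22 of 28 were lower and 2 higher (median log2 difference -2.35), and of the MHC class I pathway 20 of 22 and 0 (-2.53). Of the MHC class II genes in the leukocyte list, the log2 difference was -4.60 ± 0.14 for *H2-Aa*, -4.44 ± 0.12 for *H2-Eb1* and -4.45 ± 0.15 for *H2-Ab1*, and -4.24 ± 0.15 for their chaperone *Cd74*. *Jchain*, which joins secreted antibodies, was at 0.0276 to 0.13 (median 0.0712) FPKM in brain, 0.0238 to 0.145 (median 0.0703) in cerebellum, 0.507, 0.456, 35.7, 0.333 and 0.116 in the heart libraries and 70.4 to 129.5 (median 83.2) in colon, so that the heart libraries other than female replicate 3 were close to or within the neural range. The 2 genes in the other direction, *P2ry12* and *Cx3cr1*, are known from microglia. *P2ry12* was at 12.3 to 22.5 (median 20.9) FPKM in brain, 3.74 to 9.74 (median 4.9) in cerebellum, 3.48, 3.67, 4.75, 5.77 and 2.47 in the heart libraries and 1.21 to 2.09 (median 1.72) in colon, with cerebellum overlapping heart.

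In the class I pathway, the immunoproteasome subunit *Psmb8* was at 2 to 3.34 (median 2.68) FPKM in brain, 1.47 to 3.09 (median 2.8) in cerebellum, 16.5, 15.6, 22.8, 15.2 and 11.9 in the heart libraries and 28.5 to 42.9 (median 33.4) in colon, and *Psmb9* had a log2 difference of -3.22 ± 0.17. *H2-Q4*, a class I molecule, was at 0.476 to 1.5 (median 0.869) FPKM in brain, 0.763 to 1.34 (median 1.09) in cerebellum, 7.7, 10.2, 14.9, 9.12 and 8.35 in the heart libraries and 8.48 to 16.6 (median 11.6) in colon. *H2-Q6* and *H2-Q7* were lower too (-4.41 ± 0.22 and -3.94 ± 0.31), but are near-identical copies whose reads cannot be assigned with certainty. Heart levels of all 5 genes were highest in female heart replicate 3, whose leukocyte list summed to 1248 FPKM against 730.2 to 845 in the other heart libraries, and each remained lower in the neural tissues without it.

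Complement and iron genes were lower in 23 of 28 cases and higher in 1 (median log2 difference -2.14). *C3*, the central complement component, was at 0.175 to 2.65 (median 0.481) FPKM in brain, 0.9 to 3.33 (median 2.12) in cerebellum, 377, 407, 679, 352 and 413 in the heart libraries and 116 to 224 (median 168) in colon. *C1s1* (-6.79 ± 0.26), *C1ra* (-4.91 ± 0.19) and *C7* (-5.46 ± 0.30) were lower as well. *Cfd*, the complement factor of fat known as adipsin, was at 0 to 0.09 (median 0.0202) FPKM in brain, 0.0399 to 0.321 (median 0.169) in cerebellum, 0.824, 6.33, 2141, 2.12 and 0.68 in the heart libraries and 23 to 301 (median 155) in colon, and the ratio of means was 3192-fold (95% counting interval 2209 to 4804). Without female heart replicate 3 its fitted log2 difference went from -9.74 to -7.82. *Trf*, the iron carrier transferrin, was the exception and is known from oligodendrocytes. It was at 52.4 to 144 (median 57.6) FPKM in brain, 138 to 247 (median 199) in cerebellum, 34.6, 37, 277, 47.3 and 34.3 in the heart libraries and 23 to 53.6 (median 37.6) in colon, and was higher by 1.22 ± 0.30 with, and 1.67 without, female heart replicate 3.

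**Figure D4:**
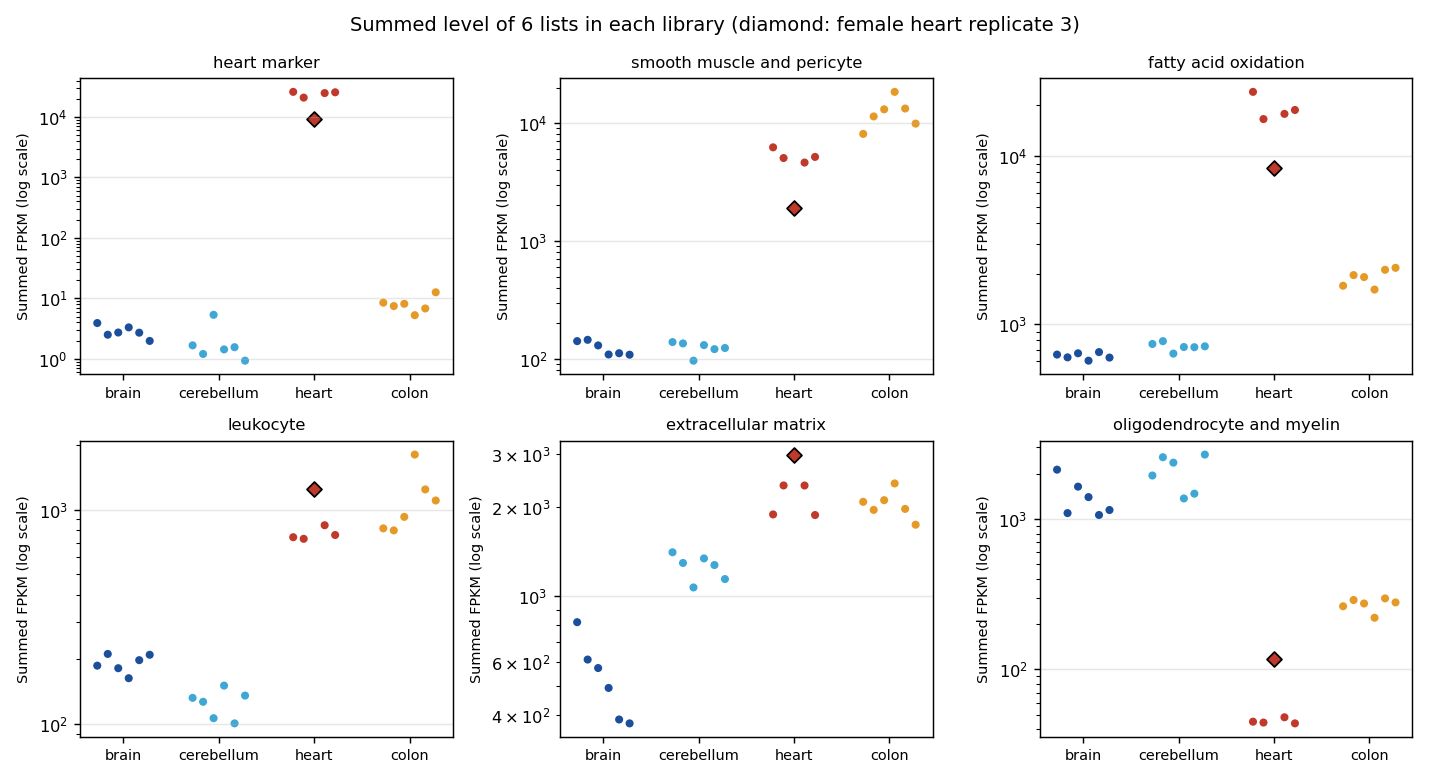
Summed FPKM of gene lists in each library (log10 axis), 1 point per library and coloured by tissue. The smooth muscle and pericyte list is at 96.8 to 145 FPKM in the 12 neural libraries and at 1889 or more in the 11 others.

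Genes of fatty acid uptake and oxidation were lower in 26 of 35 cases and higher in 1 (median log2 difference -2.78). After *Fabp4* came *Cd36*, the fatty acid receptor, *Acads*, *Slc25a20* and *Cpt2*. *Acads*, the short-chain acyl-CoA dehydrogenase, was at 2.53 to 4.75 (median 3.52) FPKM in brain, 4.51 to 5.78 (median 4.83) in cerebellum, 134, 109, 49.5, 111 and 105 in the heart libraries and 45.1 to 115 (median 75.3) in colon. *Slc25a20*, the carnitine-acylcarnitine carrier of the mitochondrion, was at 4.38 to 5.37 (median 5.07) FPKM in brain, 5.06 to 7.41 (median 6.92) in cerebellum, 99.6, 74.7, 32.5, 94.9 and 97.1 in the heart libraries and 48.1 to 96 (median 70.6) in colon. Heart and colon overlapped for both genes and all neural libraries were below them, with log2 differences of -4.38 ± 0.17 (SE, adjusted P = 2.16e-16) and -3.73 ± 0.15 (SE, adjusted P = 4.47e-16). *Cpt1c*, the brain form of carnitine palmitoyltransferase, was higher instead, at 11.9 to 15.1 (median 13.6) FPKM in brain, 6.49 to 9.11 (median 7.42) in cerebellum, 0.848, 1.2, 1.19, 0.932 and 0.555 in the heart libraries and 1.05 to 1.95 (median 1.23) in colon.

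Glycolytic and gluconeogenic isozymes had 6 of 28 genes higher and 10 lower, against 31% and 25.2% of all tested genes (median log2 difference -0.58). *Eno2* (7.33 ± 0.19), the neuronal glucose transporter *Slc2a3* (3.73 ± 0.15), *Pgam1* (1.70 ± 0.11), *Pfkp* (1.02 ± 0.09) and *Eno1* were higher. *Eno3* of muscle (-6.26 ± 0.22), the insulin-responsive transporter *Slc2a4* (-4.83 ± 0.15) and *Hk2* (-3.85 ± 0.17) were lower. *Pck1*, the enzyme that starts gluconeogenesis, was at 0 to 0.0529 (median 0) FPKM in brain, 0 to 0.0382 (median 0.031) in cerebellum, 0.054, 0.481, 184, 0.609 and 0.0558 in the heart libraries and 47.4 to 99 (median 55.9) in colon. The ratio of means was 2867-fold (95% counting interval 1765 to 5015). Its fitted log2 difference was -10.01 with and -8.05 without female heart replicate 3, and the call was lost without male heart replicate 1 (adjusted P = 0.17).

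Desmosomal and other junction genes shared by heart muscle and epithelium were lower in 11 of 20 cases and higher in 1 (median log2 difference -2.06). Desmoplakin, encoded by *Dsp*, was at 0.0161 to 0.735 (median 0.201) FPKM in brain, 0.367 to 0.831 (median 0.641) in cerebellum, 172, 185, 68, 208 and 218 in the heart libraries and 41 to 77.8 (median 63.5) in colon. *Dsc2*, a desmosomal cadherin, was at 0.144 to 0.228 (median 0.155) FPKM in brain, 0.0876 to 0.19 (median 0.141) in cerebellum, 12.8, 12.1, 7.61, 15.8 and 14.5 in the heart libraries and 47.2 to 117 (median 67.3) in colon. Heart was higher than colon for *Dsp* in 4 of 5 libraries and colon higher than heart for *Dsc2*, and the neural libraries were lower than both. *Dsg2* (-5.84 ± 0.17), *Perp* (-3.93 ± 0.16) and *Pkp2* (-5.28 ± 0.18) followed, and *Pkp4* was higher with overlapping libraries (1.15 ± 0.11).

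Developmental factors of mesoderm and gut, in a list of GATA, HAND and related genes, were lower in 19 of 36 cases and higher in 1, with 10 not called (median log2 difference -1.95). After *Hand2*, *Gata5* was 584-fold (95% counting interval 228 to 2144) and *Wt1* 123-fold (95% counting interval 92.5 to 168) higher in heart and colon. *Gata6* was at 0 to 0.0374 (median 0.0183) FPKM in brain, 0.116 to 0.242 (median 0.141) in cerebellum, 15.2, 13.5, 8.41, 13.3 and 15.5 in the heart libraries and 2.33 to 4.19 (median 3.08) in colon, and *Tcf21*, a factor of fibroblasts, at 0 to 0.0606 (median 0.0172) FPKM in brain, 0.048 to 0.47 (median 0.259) in cerebellum, 5.94, 8.15, 4.91, 6.27 and 4.29 in the heart libraries and 12.5 to 18.7 (median 14.5) in colon. The exception was *Foxc2* (2.88 ± 0.20), at 2.19 to 6.17 (median 3.64) FPKM in brain, 3.21 to 5.59 (median 4.2) in cerebellum, 0.937, 1.5, 1.81, 1.2 and 1.29 in the heart libraries and 0.0632 to 0.37 (median 0.22) in colon.

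Markers of the nerves within gut and heart were examined because heart and colon hold nerve tissue of their own. Of 22 genes, 8 were higher in the neural tissues and 2 (*Hand2* and *Phox2a*) lower, with 6 interleaved and 6 not called, and the count of higher genes is close to the 31% of all tested genes (median log2 difference 2.16, or 2.05 with bounds). *Th*, the first enzyme of catecholamine synthesis, was at 1.41 to 3.81 (median 1.88) FPKM in brain, 3 to 7.41 (median 4.83) in cerebellum, 0, 0.0243, 0.0652, 0 and 0 in the heart libraries and 0 to 0.0285 (median 0) in colon, *S100b* was higher by 7.11 ± 0.16, *Sox10* by 5.08 ± 0.27 (5.88 without male heart replicate 1) and *Uchl1* by 4.49 ± 0.21. Red blood cell genes were not called in any direction in edgeR (7 of 7), although 4 of these are alpha and beta globin copies whose reads are uncertain. Their summed level was 331 to 1561 FPKM in brain, 1379 to 3138 in cerebellum, 6496 to 42070 in heart and 27.4 to 86.5 in colon, so that heart and colon lay on either side of the neural libraries.

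By gene class, 5395 of 16867 tested protein-coding genes were higher (32%) and 4550 lower (27%), 1578 of 4522 long noncoding RNAs (lncRNAs) were higher (34.9%) and 892 lower (19.7%), and 265 of 1448 pseudogenes were higher (18.3%) and 342 lower (23.6%). The pseudogene counts depended on the filter, with 531 higher when no filter was set and 118 higher and 150 lower under a stricter one. Of 164 loci known only from Iso-seq, 59 were higher (36%) and 48 lower (29.3%), and of 2740 other genes 674 (24.6%) and 661 (24.1%). Of all tested genes, 31% were higher and 25.2% lower.

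The lncRNAs furthest apart in the neural direction, among 404 without overlap and with at least 1 FPKM, were *Gm14205*, *Gm3764*, *Mir124-2hg*, *Mir9-3hg* and *AW047730*. *Gm14205* (chr2:158610910-158611820, minus strand) was at 12.2 to 20.1 (median 16.5) FPKM in brain and 14.9 to 25.6 (median 22.3) in cerebellum with no count in heart or colon, and was at least 859-fold higher. It starts 173 bases from the start of *Slc32a1* on the opposite strand and overlaps it. The libraries were made strand-specific, but the sources used here do not say how strand was treated when reads were counted, so reads of an antisense pair cannot be told apart with certainty. *AW047730* likewise lies antisense to *AI849053*. *Gm3764* (chr3:88206813-88229959) was at 3.15 to 4.5 (median 3.96) FPKM in brain, 4.98 to 7.79 (median 6.61) in cerebellum, 0 in the heart libraries and 0 to 0.0123 (median 0) in colon, with a single count in 1 colon library, and was 5573-fold (95% counting interval 1000 to 220100) higher. *Mir9-3hg* (chr7:79500026-79534403) was at 3.41 to 4.25 (median 4.05) FPKM in brain, 3.15 to 5.62 (median 4.5) in cerebellum, 0, 0.0263, 0, 0 and 0 in the heart libraries and 0 in colon, and *Mir124-2hg* (chr3:17789921-17808970) at 5.69 to 6.57 (median 6.18) FPKM in brain, 2.73 to 5.75 (median 3.39) in cerebellum, 0.0118, 0.0191, 0, 0 and 0 in the heart libraries and 0 to 0.0286 (median 0) in colon. Neural and other libraries did not overlap for these genes.

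MicroRNAs are cut from hairpins in longer transcripts. *Gm3764* spans the hairpin *Mir9-1* and *Mir9-3hg* spans *Mir9-3*, both of which give the same mature strands. A search of all 1005 hairpins of the RefSeq table (GRCm38.p6) against tested genes on the same strand found 588 hairpins in 509 host genes. Of the hosts, 189 (37.1%) were higher and 121 (23.8%) lower, against 32.6% and 25.5% of all tested coding genes and lncRNAs. Of 55 lncRNA hosts, 29 were higher and 10 lower, against 34.9% and 19.7% of all tested lncRNAs. Mature sequences from RefSeq are shown for 5 miRNAs known from brain, whose hosts were chosen after their values were seen, with the seed (bases 2 to 8, which pair with targets) in capitals:
miR-9-5p: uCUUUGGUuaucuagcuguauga
miR-9-3p: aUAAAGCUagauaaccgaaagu
miR-128-3p: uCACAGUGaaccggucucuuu
miR-129-5p: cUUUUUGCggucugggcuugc
miR-138-5p: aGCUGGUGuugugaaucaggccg
miR-338-3p: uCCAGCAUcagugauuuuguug

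All 3 hosts of miR-9, which is known from neural progenitors, were higher: *Gm3764* and *Mir9-3hg* above, and *C130071C03Rik*, which spans *Mir9-2* and averaged 14.2 ± 2.44 FPKM in brain, 14.9 ± 1.98 in cerebellum, 0.039 ± 0.0157 in heart and 0.0445 ± 0.0343 in colon. The hosts of miR-128, *Arpp21* and *R3hdm1*, were higher by 7.83 ± 0.40 and 1.39 ± 0.10 on the log2 scale, with libraries overlapping for *R3hdm1*. *Gm3294* and *Mir670hg*, which host the hairpins of miR-129, were higher. *Mir670hg* averaged 1.16 ± 0.215 FPKM in brain and 1.69 ± 0.271 in cerebellum against 0.0485 ± 0.0668 in heart and 0.102 ± 0.0805 in colon. *C78859*, which hosts *Mir138-2*, was also higher, at 0.784 ± 0.123 in brain, 0.461 ± 0.092 in cerebellum, 0.0111 ± 0.011 in heart and 0.0428 ± 0.0386 in colon. *Aatk* hosts *Mir338*, whose miRNA is known from oligodendrocytes, and was higher by 5.17 ± 0.21 on the log2 scale. These values are of the host transcripts, and mature miRNAs were not measured.

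In the other direction, the 5 lncRNAs were *Hand2os1*, *Gm34030*, *Gm33424*, *AI507597* and *Atcayos*, among 144. *AI507597* lies opposite *Tmem82* and *Atcayos* opposite *Nmrk2*, so the same doubt about strand holds for them. *Hand2os1* (chr8:57304271-57320380, minus strand), known as an upstream partner of *Hand2*, had no count in the 12 neural libraries. It was at 122, 81.5, 36.1, 92.7 and 76.9 FPKM in the heart libraries and 6.24 to 9.22 (median 6.59) in colon, at least 3737-fold higher than the neural bound. Its start lies 603 bases from that of *Hand2*, and the 2 genes are read away from each other. *Gm34030* (chr8:57331692-57334585), which lies nearby and antisense to *5033428I22Rik*, also had no neural count and was at 13.9, 10, 4.46, 9.61 and 11.2 FPKM in heart and 1.05 to 2.06 (median 1.25) in colon. *Hand2*, *Hand2os1* and *Gm34030* were each lower in female heart replicate 3 than in the other heart libraries. Every heart library was above every colon library for *Hand2os1* and *Gm34030*, whereas *Hand2* in female heart replicate 3 lay within the range of colon. The 250 bases before the RefSeq start of *Hand2* and of *Neurod2*, the coding genes leading each direction, are given with CG dinucleotides in capitals (both strands read CG alike), from the RefSeq promoter table (GRCm38.p6). *Hand2* covers chr8:57320733-57320982 on the plus strand and *Neurod2* chr11:98329646-98329895 on the minus strand, each 5′ to 3′. The last 3 bases of the *Neurod2* stretch lie inside the gene as counted here.
Hand2: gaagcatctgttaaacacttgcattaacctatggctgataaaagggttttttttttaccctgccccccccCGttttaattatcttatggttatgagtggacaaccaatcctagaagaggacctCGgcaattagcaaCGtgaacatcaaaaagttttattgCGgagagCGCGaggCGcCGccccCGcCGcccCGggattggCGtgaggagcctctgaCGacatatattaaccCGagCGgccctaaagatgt
Neurod2: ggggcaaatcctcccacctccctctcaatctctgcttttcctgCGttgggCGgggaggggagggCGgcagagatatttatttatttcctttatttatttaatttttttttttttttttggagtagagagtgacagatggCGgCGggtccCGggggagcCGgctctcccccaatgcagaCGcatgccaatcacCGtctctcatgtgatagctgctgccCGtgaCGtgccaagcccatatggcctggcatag

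These stretches hold 15 and 11 CG dinucleotides. Of 32841 stretches of that length in the table, 92.1% held at least 1 and the median was 6, while 27.3% held 15 or more and 35.6% held 11 or more.

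The 5 pseudogenes furthest apart in the neural direction, among 37, were *Gm11855*, *Gm18406*, *Gm18908*, *Gm11637* and *Gm49071*. *Gm11855* (chr4:15819074-15821370) was at 3.01 to 6.66 (median 3.82) FPKM in brain and 0.386 to 0.967 (median 0.622) in cerebellum with no count in heart or colon, and was at least 279-fold higher. *Gm18406*, *Gm11637* and *Gm49071* had no count in heart or colon either and were at least 62.9-fold, at least 52.7-fold and at least 40.2-fold higher. RefSeq lists *Gm18406* under the lncRNA *Gm32810*. In the other direction, among 26, were *Gm4956*, *Mfsd4b3-ps*, *Gm18840*, *Gm8221* and *Gm21013*. *Gm18840* (chr6:124561215-124563785) was at 0.0687 to 0.413 (median 0.155) FPKM in brain, 0 to 0.364 (median 0.101) in cerebellum, 2.24, 6.58, 10.1, 3.76 and 7.09 in the heart libraries and 4.39 to 9.7 (median 5.09) in colon, and *Gm4956* (chr1:21285246-21298312) at 0 FPKM in brain, 0 to 0.107 (median 0) in cerebellum, 3.12, 2.31, 0.424, 3.74 and 1.72 in the heart libraries and 0.441 to 3.21 (median 1.45) in colon. Neither gene overlapped between the sides, though counts of *Gm4956* were few. *Mfsd4b3-ps* overlaps *Mfsd4b5*, and reads of pseudogenes and their parent genes can be confused.

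The span of genes on the genome, from first to last exon, was compared without a test. Of 16705 coding genes at single loci, 11.2% spanned more than 100 kb, against 17.4% of higher and 7.31% of lower genes. The share was 25.7% among 611 genes whose smallest difference was over 5 on the log2 scale in the neural direction and 6.25% among 80 genes in the other direction. Median spans were 20.1 kb for all, 24.6 kb for higher and 18.3 kb for lower genes. By chromosome, X held the largest share of higher genes, 310 of 718 (43.2%), with 161 lower (22.4%).

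**Figure D5:**
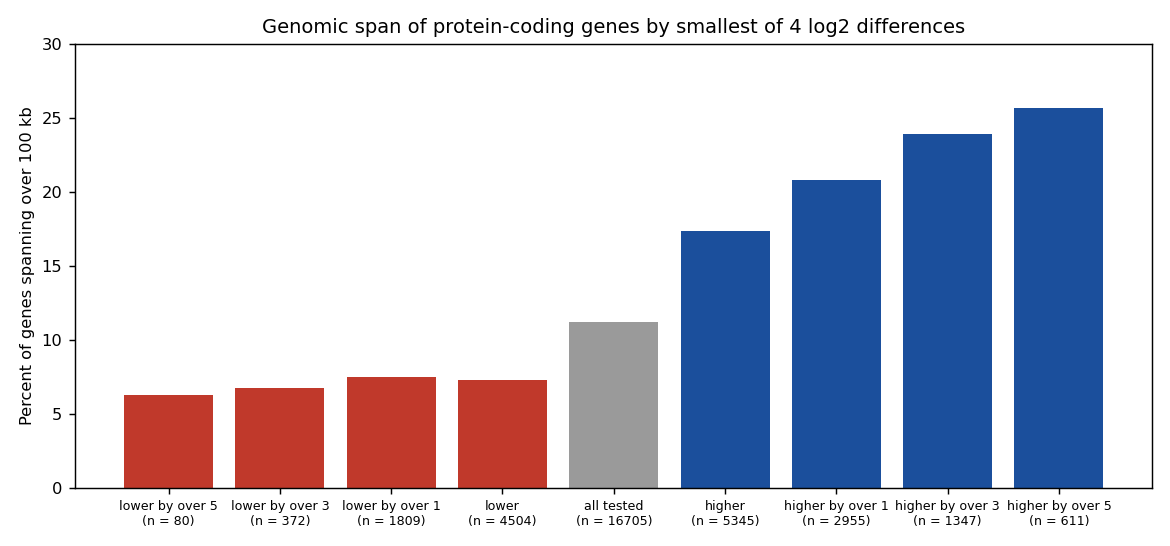
Percent of protein-coding genes that span more than 100 kb of the genome (vertical axis, from 0), for all tested genes and for genes on the same side by the smallest of their 4 log2 differences. The share goes from 6.25% among genes lower by over 5 through 11.2% of all tested to 25.7% among genes higher by over 5.

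The tissues on each side were not alike. Brain and cerebellum differed for 7343 genes (28.5%) and heart and colon for 15803 (61.4%). Of the 7971 higher genes, 3102 (38.9%) also differed between brain and cerebellum, 2081 of them with brain above. Of the 6493 lower genes, 4019 (61.9%) differed between heart and colon, 1716 with heart and 2303 with colon above. The median absolute log2 difference between brain and cerebellum was 0.49 among higher genes and 0.42 among all tested genes, and that between heart and colon was 0.91 among lower genes and 1.10 among all.

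A fit over all 29 libraries set the neural tissues against ovary and testis, with 3 libraries each. Over all 29911 genes tested there, 9206 (30.8%) were higher in the neural tissues than in ovary and 9404 (31.4%) than in testis. These comparisons share their neural libraries with the one above, so the counts that follow are a description and not independent evidence. Of the 7971 genes, 6047 (75.9%) were also higher than in ovary and 326 lower, and 5083 (63.8%) were also higher than in testis and 1700 (21.3%) lower. For 4292 (53.8%) both held.

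Some of the higher genes were expressed strongly in a gonad. In ovary the highest were the small RNA genes *Gm25776* and *Scarna13*, the lipid carrier *Apoe*, *Ptms* and *Tceal9*. *Apoe* averaged 352 ± 31 FPKM (SD, n = 3) in ovary and 1314 ± 106 in brain (n = 6). In testis they were *Oaz3*, *Gstm5*, *Gm22721*, *Gm44313* and *Odf2*. *Oaz3*, an antizyme known from spermatids, averaged 2795 ± 280 FPKM (n = 3) in testis against 2.86 ± 0.79 in brain, 4.12 ± 0.57 in cerebellum, 0.184 in heart and 1.15 in colon. *Odf2*, a protein of the sperm tail, was at 866 ± 20.2 in testis and 9.95 ± 0.6 in brain. For *Oaz3* and *Odf2* the difference from heart and colon was 2.92 and 0.88 on the log2 scale, and that from testis -9.67 and -6.29.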

How the data were processed

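Ribosomal-RNA-depleted, strand-specific RNA-seq libraries were aligned by the authors with HISAT2 (version 2.0.5, mm10) and counted per gene with featureCounts (version 1.6.3). The versions are from the submitters' processing notes. The deposited table holds raw counts for a merged annotation of known genes and loci found by Iso-seq (long-read cDNA sequencing), and those counts were used as deposited. The 6 Iso-seq samples were not used here. The members and gene lists were chosen with earlier results of these data known.

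Genes were filtered with filterByExpr (minimum count 10), scaled by TMM, and fitted with the quasi-likelihood test of edgeR (version 4.0.16, R 4.3.3, robust) over 23 libraries in 8 groups of tissue and sex. Sexes were weighted equally within a tissue. All adjusted P-values are two-sided, from this test, and corrected by Benjamini-Hochberg over all genes tested. Steps were tested on simulated data. FPKM used the union exon length and the TMM-scaled library size. Overlap of libraries was judged on log2 CPM with a prior count of 2. Named genes were the 10 coding genes (at least 10 FPKM), 5 lncRNAs and 5 pseudogenes (at least 1 FPKM) in each direction with the largest smallest-of-4 difference and no overlap of libraries, the 5 furthest members of each list in each direction, the gene pairs, and the 5 highest genes of each gonad. MicroRNA hosts were chosen after their values were seen. Totals of 11742417 to 36194255 counts per library set the precision, and counting intervals (95%, exact Poisson) and the floor of 3 counts over a side cover counting error only. Other normalizations, filters, tests, blocks and left-out libraries were tried as alternatives. DESeq2 (version 1.42.0) served for some of them. Some genes that met these rules are not reported here.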

Additional observations from a re-analysis of the deposited data

Results flagged for a closer look

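Within each tissue, with both sexes together, 124 sets of values were examined for a library far from the others by Dixon's criterion, and 18 had one. Chance gives about 1 in 20 such sets, and the measures are not independent. Female heart replicate 3 accounted for 10 of the 18. Its normalization factor was 1.081 (others 0.58 to 0.695), its median correlation within the tissue 0.9435 (0.976 to 0.978), and its 10 highest genes held 17.84% of its counts (26.2 to 28.4%). Its summed FPKM was higher than in the other hearts for oligodendrocyte and myelin genes (116.6 against 43.8 to 48.1) and for leukocyte genes (1248 against 730.2 to 845). It was lower for sodium and calcium channels (69.93 against 119.6 to 137), the REST complex (246.1 against 281 to 288), glycolytic isozymes (3467 against 7449 to 9061), GATA, HAND and mesodermal factors (282.7 against 351 to 372) and junctions (500 against 989.8 to 1067).

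In brain, the total count of male replicate 2 was 3.619e+07 (others 2.44e+07 to 2.851e+07), and the colon markers of female replicate 1 summed to 2.258 FPKM (0.579 to 1.09). In cerebellum, female replicate 3 had 5.175% of counts from mitochondrially encoded genes (2.46 to 3.25%) and heart markers at 5.333 FPKM (0.93 to 1.67). Erythroid genes summed to 3138 FPKM in female cerebellum replicate 1 (1379 to 1993). In colon, vesicle release genes summed to 110.1 FPKM in female replicate 1 (119 to 121), junction genes to 790.6 in male replicate 1 (1087 to 1207), and brain markers to 8.798 in male replicate 3 (4.49 to 5.94). The part these libraries play in the results was tested only by leaving each out.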

How the results depend on the processing

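Of 7664 values of 219 named genes under 12 other settings and 23 left-out libraries, 7569 kept their direction and side of the threshold, 58 lost the call, 35 gained it and 2 reversed. The 2 were *Mbnl2* (0.2015) and *Gnai2* (0.1745), both under scaling by library size alone, which moved the median log2 difference of all genes from -0.04 to 0.34. That scaling gave 4230 lower genes. A test against a log2 difference of 1 gave 3971, requiring each of the 4 differences to pass gave 3573, and requiring libraries not to overlap gave 2245 lower and 4150 higher, the last 3 being stricter by construction. For the scaling, the cause was not tested. Leaving out 1 library gave 7816 to 8188 higher and 5855 to 6611 lower genes. The sex difference gave 0 genes in edgeR, also in each such fit, and 16 with the Wald test of DESeq2 (48 over 29 libraries). Among the 7971 higher genes, those also over ovary numbered 5733 to 6027 and over testis 4696 to 5094 with 1 gonad library left out. With alternatives chosen after seeing the data, these counts were 5998 and 4838 with DESeq2 size factors and 6102 and 4885 with its Wald test.

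Whether libraries of different tissues are paired could not be decided. Correlations were of deviations from the means of very small groups, which ties the values of a group to each other. Of 33 same-numbered pairs, 1 correlated above 0.1 (median 0.006), and of 66 others 4 did. The library codes in the labels run across tissues. Of 30 pairs with the same code, 2 correlated above 0.1 (median 0.008), and of 69 others 3 did. With the replicate number as a block, 7985 genes were higher and 6908 lower. With the library code as a block they were 7956 and 6783. Differences in genes with few counts, among them most pseudogenes, are limited by depth.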
